A study of Mus musculus with 30 samples.

Results

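Skeletal muscle contractile genes were followed in tumours grown under the skin from EL4, a T lymphoma line of the mouse. The set is a list of 38 symbols for proteins of the muscle fibre, read here as a sign of muscle beside the tumour. All 38 were found among 19938 genes, each through the array row with the highest mean for its symbol. Expression had been measured with 30 Affymetrix mouse gene arrays, 1 per tumour sample, in 6 groups of 5. The titles mark the samples WT. Mice had received either no antibiotics (water, H2O in the labels) or a 3-week antibiotic cocktail (ABX) before 500000 EL4 cells were injected under the skin of the flank. On day 7 after that, mice of all groups received the platinum drug oxaliplatin, which forms DNA adducts, by the intraperitoneal route at 10 mg per kg. Tumours were taken at 0, 6 or 18 h, so there is no tumour without the drug at the later times, and a change with time holds whatever differs between the times. Total RNA was extracted from the tumours with no sort of cells in the labels, so it can hold host tissue along with the lymphoma cells. The strain, age and sex of the mice and the makeup of the cocktail are not given in the sources used here. The labels do not say that the 5 samples of a group came from separate mice, so p-values measure the spread between samples.

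Skeletal muscle contracts when myosin heads of the thick filament pull on the actin of the thin filament inside a repeating unit, the sarcomere. Calcium released from the sarcoplasmic reticulum binds troponin and exposes the actin sites, and a pump returns it to the store. Fast and slow fibres use different genes for the same parts, so the myosin and troponin isoforms name the fibre type. In mouse limb and trunk most muscle is fast, and a thin muscle sheet lies under the skin of the flank. EL4 cells are T cells and have no sarcomere.

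The promoters of a few members are shown. Acta1, Myh4 and Tnnc2 moved with most members, and Myh7 and Tnnc1, the slow partners of Myh4 and Tnnc2, did not. Acta1 is not counted as a fast or a slow member. RefSeq windows of GRCm38.p6 covered 29 of the 38 members with 35 windows, each trimmed to the 200 bases before the annotated start. They are shown 5′ to 3′ on the strand of the gene. Capitals mark matches, found on either strand, to the TATA box (TATAAA), the E-box (CANNTG, the site of the MyoD family), the MEF2 consensus and the CArG box, the site of serum response factor.
Acta1, chr8:123894776-123894975, minus strand: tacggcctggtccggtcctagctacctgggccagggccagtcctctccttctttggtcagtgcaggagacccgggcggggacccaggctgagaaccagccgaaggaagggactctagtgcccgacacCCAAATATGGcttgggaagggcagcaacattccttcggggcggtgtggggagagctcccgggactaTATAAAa
Myh4, chr11:67237612-67237811, plus strand: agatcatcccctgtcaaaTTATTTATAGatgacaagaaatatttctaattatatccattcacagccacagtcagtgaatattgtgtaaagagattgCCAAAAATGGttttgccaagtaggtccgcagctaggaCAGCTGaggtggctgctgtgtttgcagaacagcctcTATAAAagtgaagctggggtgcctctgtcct
Tnnc2, chr2:164779735-164779934, minus strand: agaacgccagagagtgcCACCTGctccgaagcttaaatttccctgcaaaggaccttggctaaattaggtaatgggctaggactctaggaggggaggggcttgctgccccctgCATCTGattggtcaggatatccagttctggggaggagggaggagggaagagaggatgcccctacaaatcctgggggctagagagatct
Tnnc1, chr14:31208112-31208311, plus strand: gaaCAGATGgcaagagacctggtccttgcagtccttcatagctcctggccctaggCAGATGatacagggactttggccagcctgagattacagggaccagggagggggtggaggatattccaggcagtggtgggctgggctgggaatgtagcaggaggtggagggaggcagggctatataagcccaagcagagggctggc
Myh7, chr14:54994627-54994826, minus strand: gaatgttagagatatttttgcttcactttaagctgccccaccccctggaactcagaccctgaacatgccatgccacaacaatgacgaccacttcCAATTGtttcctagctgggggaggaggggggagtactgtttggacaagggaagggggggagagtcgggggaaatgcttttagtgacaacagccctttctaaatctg
Acta1, skeletal alpha-actin, has a CArG box and a TATA box. Myh4, the fast IIB myosin, has a MEF2 match, a CArG box, 1 E-box and 2 TATA matches, of which the more distant one lies inside the MEF2 match on the other strand. Tnnc2 and Tnnc1, the fast and the slow troponin C, each have 2 E-boxes and no other match. The window shown of Myh7, the slow myosin, has 1 E-box, and the table holds 2 windows for that gene. The window of Ckm, which also moved with most members, is not printed and held none of these matches.

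Over all 35 windows of members, 71.43% held an E-box, against 58.21% of the 32843 windows in the table. The form CAGCTG, which is 1 kind of E-box and is counted in the share above, was in 37.14% against 10.86%. A MEF2 consensus was in 11.43% against 2.29%, a CArG box in 11.43% against 1.18% and a TATA box in 14.29% against 9.96%. The MEF2 and CArG counts each rest on 4 windows, and 7 windows held at least 1 of them. Among the fast members 63.64% of 11 windows held an E-box, and among the slow members all 7 windows did. These are matches of letters, and several genes give more than 1 window, so the shares are a description.

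Values are the deposited log2 intensities, and a deviation is a log2 value minus the median of that gene over the 30 arrays. Levels of different genes are not compared, since each probe has its own response. The medians of the arrays spanned 7.25 to 7.37. Cd3e, a chain of the T cell receptor complex, lay between 11.12 and 11.52 on all arrays, which does not separate EL4 from host T cells. Of the 11 T cell genes read here, Cd4 and Cd2 ranged most widely, from 8.11 to 9.13 and from 7.31 to 8.31. Antibiotic 6 h array 3 stood apart from the others in its distribution of values, with an interquartile range of 2.98 against 3.35 for array 5 of the same group. In whole tumours, fewer muscle cells and less RNA per cell cannot be told apart.

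Most members rose and fell together from array to array, and 1 array exceeded all others in their mean. On antibiotic 6 h array 5 the mean deviation of the 38 members was 1.25, whereas the other 29 arrays lay between -0.50 and 0.66. It was the highest array for 32 of 38 members, and 26 stood at least 1 log2 unit above their median there. The 4 that stood at least 2 units above were Pvalb, Casq1, Pygm and Myh4. Pvalb, parvalbumin, the calcium buffer of fast fibres, was 6.36-fold above its median. Casq1, the calcium store protein calsequestrin, was 4.80-fold above. Pygm, muscle glycogen phosphorylase, was 4.27-fold above, and Myh4 4.05-fold.

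The array was not alone in carrying muscle signal. Water 0 h arrays 3 and 5 had mean deviations of 0.61 and 0.66, and antibiotic 0 h array 1 had 0.48. The mean was 0.28 on both water 18 h array 3 and antibiotic 18 h array 2. Antibiotic 18 h array 1 had the lowest mean, -0.50, followed by water 6 h array 1 with -0.43 and antibiotic 6 h array 2 with -0.40. High and low arrays thus occurred in both treatments. All 14 fast-fibre members were above their median on 8 arrays, which came from 4 of the 6 groups, and all 14 were below it on 7 arrays, which came from 5 groups.

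**Figure D1:**
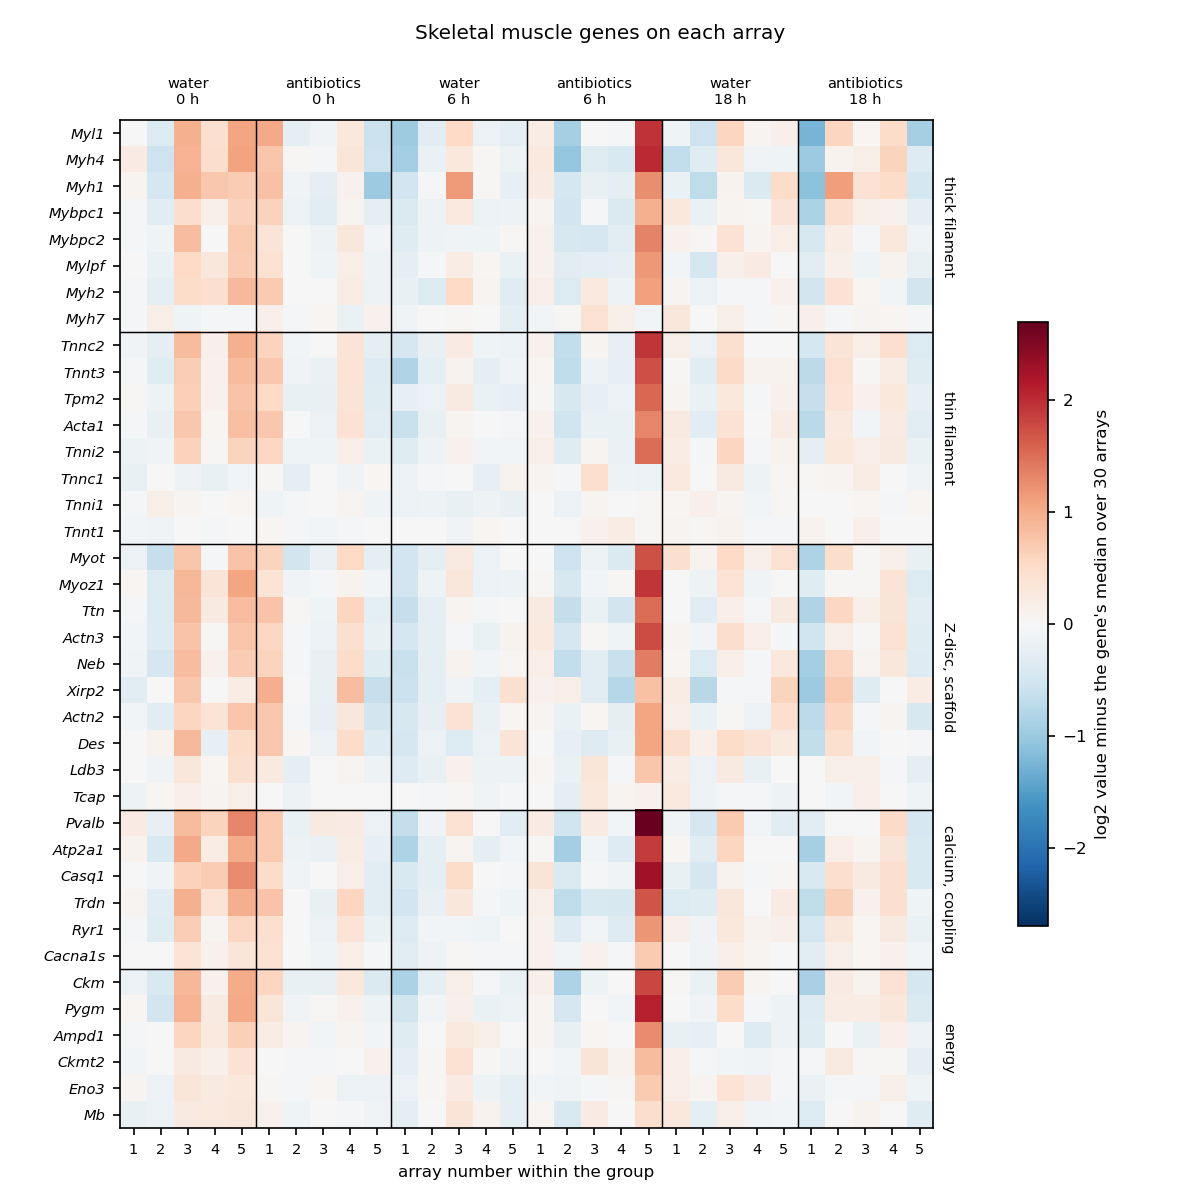
Heat map of the deviation of each of the 38 genes (rows, grouped by role) on each of the 30 arrays (columns, 5 per group), as log2 value minus the gene's median. Antibiotic 6 h array 5 forms a dark column that 32 of the 38 genes peak in, and the rows of Myh7, Tnnc1, Tnni1, Tnnt1 and Tcap stay pale there.

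The thick filament class holds the myosin motors and the proteins that bind them. Myl1, the essential light chain of fast myosin, had the widest range of the class, with a lowest, median and highest array of 8.33, 9.58 and 11.53. In water tumours Myl1 read 9.58, 9.21, 10.54, 10.01 and 10.65 at 0 h, 8.62, 9.28, 10.11, 9.43 and 9.33 at 6 h, and 9.46, 9.02, 10.15, 9.65 and 9.72 at 18 h. In antibiotic tumours it read 10.61, 9.33, 9.49, 9.87 and 8.99 at 0 h, 9.79, 8.69, 9.59, 9.54 and 11.53 at 6 h, and 8.33, 10.16, 9.63, 10.07 and 8.68 at 18 h. The antibiotic 6 h group spanned 8.69 to 11.53 and so enclosed all 5 water values of that time except the lowest, 8.62. Myh4 ranged over 7.99, 9.03 and 11.05 for the lowest, median and highest array. Myh4 measured 9.24, 8.46, 9.98, 9.51 and 10.11 at 0 h, 8.11, 8.86, 9.32, 9.06 and 8.89 at 6 h, and 8.36, 8.71, 9.35, 8.94 and 8.92 at 18 h in water tumours. Its antibiotic arrays gave 9.79, 9.07, 9.00, 9.36 and 8.48 at 0 h, 9.29, 7.99, 8.70, 8.61 and 11.05 at 6 h, and 8.05, 9.13, 9.18, 9.62 and 8.69 at 18 h. Its lowest and its highest value over all 30 arrays, 7.99 and 11.05, belonged to the same group, antibiotics at 6 h.

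The other thick filament members moved less. Lowest, median and highest values were 6.34, 7.44 and 8.70 for Myh1, the IIX myosin, and 6.44, 6.93 and 8.04 for Myh2, the IIA myosin. Mylpf, the regulatory light chain of fast myosin, gave 6.80, 7.27 and 8.44. Mybpc2, the fast form of myosin-binding protein C, gave 8.04, 8.50 and 9.82, and the slow form Mybpc1 gave 6.54, 7.39 and 8.36. All 4 fast members among these were highest on antibiotic 6 h array 5, as was Mybpc1. Myh7 was the exception, with 6.14, 6.40 and 6.81 and its highest value on array 3 of that group.

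The 3 fast myosins did not keep a fixed ratio. On antibiotic 6 h array 5 the deviations were 2.02 for Myh4, 1.26 for Myh1 and 1.11 for Myh2. On antibiotic 18 h array 2 they were 0.10, 1.14 and 0.40 in the same order, and on water 6 h array 3 they were 0.29, 1.15 and 0.55. Myh1 thus reached 8.59 and 8.58 on the last 2 arrays, near its highest value of 8.70, where Myh4 stayed much closer to its median. These 3 genes are near-identical neighbours in sequence, and their probes can share signal, so the split between them is uncertain.

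The thin filament class holds actin, tropomyosin and the troponins that make contraction depend on calcium. Tnnc2, the calcium-binding troponin of fast fibres, gave 7.54, 8.21 and 10.15 for its lowest, median and highest array. The water values of Tnnc2 were 8.13, 7.97, 9.07, 8.36 and 9.17 at 0 h, 7.76, 8.02, 8.44, 8.10 and 8.05 at 6 h, and 8.37, 8.05, 8.64, 8.21 and 8.20 at 18 h. The antibiotic values of Tnnc2 were 8.82, 8.14, 8.22, 8.56 and 7.96 at 0 h, 8.33, 7.54, 8.29, 8.00 and 10.15 at 6 h, and 7.73, 8.57, 8.40, 8.66 and 7.85 at 18 h. The second highest value over all arrays, 9.17, came from water at 0 h. Tnnt3, the fast troponin that binds tropomyosin, gave 8.50, 9.31 and 11.05. In water tumours Tnnt3 measured 9.27, 8.97, 9.96, 9.43 and 10.17 at 0 h, 8.50, 9.06, 9.41, 9.04 and 9.19 at 6 h, and 9.34, 9.02, 9.81, 9.41 and 9.40 at 18 h. In antibiotic tumours it measured 10.03, 9.20, 9.12, 9.68 and 8.95 at 0 h, 9.36, 8.62, 9.16, 9.09 and 11.05 at 6 h, and 8.59, 9.72, 9.34, 9.50 and 8.97 at 18 h. Both troponins ranked antibiotic 6 h array 5 first and water 0 h array 5 second.

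Acta1 gave 10.07, 10.80 and 12.12 and stood 2.51-fold above its median on antibiotic 6 h array 5. Tpm2, beta-tropomyosin, gave 7.64, 8.26 and 9.81, and Tnni2, the inhibitory troponin of fast fibres, 8.59, 8.92 and 10.43. All 3 were highest on that array. The 3 slow troponins of the class were not: Tnnc1 gave 6.53, 6.76 and 7.22, Tnni1 7.32, 7.53 and 7.69 and Tnnt1 9.10, 9.19 and 9.39, with peaks on antibiotic 6 h array 3, water 0 h array 2 and antibiotic 6 h array 4.

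The Z-disc and scaffold class anchors the filaments and holds the sarcomere in register. Myot, myotilin, an actin-bundling protein of the Z-disc, gave 6.79, 7.63 and 9.35. Myot measured 7.46, 7.01, 8.37, 7.60 and 8.39 at 0 h, 7.11, 7.37, 7.87, 7.47 and 7.63 at 6 h, and 8.05, 7.73, 8.16, 7.75 and 8.05 at 18 h in water tumours. Its antibiotic arrays gave 8.23, 7.14, 7.44, 8.16 and 7.37 at 0 h, 7.63, 7.06, 7.49, 7.23 and 9.35 at 6 h, and 6.79, 8.11, 7.65, 7.79 and 7.42 at 18 h. Its value on antibiotic 6 h array 5 was 9.35, and the next highest of the group was 7.63. Myoz1, a calsarcin of fast fibres that binds calcineurin at the Z-disc, gave 6.38, 6.91 and 8.84. The water values of Myoz1 were 6.95, 6.55, 7.81, 7.26 and 7.96 at 0 h, 6.38, 6.77, 7.22, 6.75 and 6.77 at 6 h, and 6.92, 6.78, 7.28, 6.81 and 6.89 at 18 h. The antibiotic values of Myoz1 were 7.28, 6.81, 6.87, 6.99 and 6.83 at 0 h, 6.93, 6.48, 6.84, 6.94 and 8.84 at 6 h, and 6.57, 6.95, 6.94, 7.27 and 6.54 at 18 h. It was 3.84-fold above its median on antibiotic 6 h array 5 and next highest, at 7.96, on water 0 h array 5.

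Actn3, the alpha-actinin of fast fibres, gave 8.19, 8.74 and 10.49 and Actn2, the form found in all fibres, 7.36, 8.08 and 9.13. Ttn, the giant spring titin, gave 8.10, 8.92 and 10.43, and Neb, nebulin, the ruler of the thin filament, 8.12, 9.03 and 10.41. Des, the intermediate filament desmin, gave 9.11, 9.77 and 10.83, and Ldb3, a PDZ and LIM protein of the Z-disc, 6.98, 7.33 and 8.09. All 6 were highest on antibiotic 6 h array 5. Xirp2, an actin-binding repeat protein, gave 7.24, 8.21 and 9.20 and peaked instead on antibiotic 0 h array 1, with a deviation of 0.99 there, 0.84 on antibiotic 0 h array 4 and 0.80 on antibiotic 6 h array 5. Tcap, telethonin, which caps titin, gave 6.05, 6.31 and 6.61 and peaked on antibiotic 6 h array 3, without which the highest was 6.58.

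The calcium and coupling class turns the electrical signal into calcium release and clears the calcium again. Pvalb gave 6.30, 6.94 and 9.61, the widest range of all members at 3.31 log2 units. In water tumours Pvalb read 7.17, 6.72, 7.79, 7.54 and 8.26 at 0 h, 6.30, 6.84, 7.36, 6.94 and 6.65 at 6 h, and 6.84, 6.49, 7.66, 6.86 and 6.66 at 18 h. In antibiotic tumours it read 7.65, 6.77, 7.18, 7.17 and 6.79 at 0 h, 7.17, 6.40, 7.16, 6.88 and 9.61 at 6 h, and 6.66, 6.95, 6.95, 7.46 and 6.48 at 18 h. Its value on antibiotic 6 h array 5 lay 2.67 above the median, and the next array of any group, water 0 h array 5, reached 8.26. Atp2a1, the calcium pump of fast fibres, gave 8.47, 9.39 and 11.28. Atp2a1 measured 9.49, 8.98, 10.41, 9.59 and 10.40 at 0 h, 8.56, 9.15, 9.47, 9.16 and 9.32 at 6 h, and 9.43, 9.08, 9.96, 9.39 and 9.40 at 18 h in water tumours. Its antibiotic arrays gave 10.09, 9.25, 9.22, 9.60 and 9.17 at 0 h, 9.42, 8.47, 9.32, 9.05 and 11.28 at 6 h, and 8.50, 9.58, 9.47, 9.73 and 8.98 at 18 h. It too had its lowest and its highest array within the antibiotic 6 h group.

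Casq1 gave 6.46, 6.91 and 9.17, Ryr1, the calcium release channel, 7.42, 7.88 and 9.07, and Cacna1s, the voltage sensor coupled to it, 6.61, 6.90 and 7.62. Trdn, triadin, which ties calsequestrin to the channel, gave 7.75, 8.44 and 10.14. All were highest on antibiotic 6 h array 5. Trdn was the 1 member with several rows, 19 in all, and 18 of the 19 were highest on that array.

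The energy class feeds the contraction. Ckm, muscle creatine kinase, gave 8.92, 9.79 and 11.60. The water values of Ckm were 9.64, 9.37, 10.69, 9.90 and 10.78 at 0 h, 8.94, 9.53, 9.95, 9.76 and 9.62 at 6 h, and 9.83, 9.61, 10.48, 9.87 and 9.78 at 18 h. The antibiotic values of Ckm were 10.36, 9.59, 9.58, 10.09 and 9.40 at 0 h, 9.93, 8.97, 9.66, 9.80 and 11.60 at 6 h, and 8.92, 10.02, 9.89, 10.18 and 9.35 at 18 h. It was 3.50-fold above its median on antibiotic 6 h array 5, and water 0 h arrays 3 and 5 followed at 10.69 and 10.78. Pygm gave 7.64, 8.15 and 10.25. In water tumours Pygm measured 8.21, 7.64, 9.09, 8.40 and 9.19 at 0 h, 7.65, 8.07, 8.30, 7.97 and 8.02 at 6 h, and 8.15, 8.05, 8.65, 8.11 and 8.03 at 18 h. In antibiotic tumours it measured 8.47, 8.05, 8.18, 8.27 and 8.01 at 0 h, 8.23, 7.70, 8.15, 8.07 and 10.25 at 6 h, and 7.80, 8.36, 8.36, 8.46 and 7.77 at 18 h. Apart from the highest array the antibiotic 6 h values of Pygm lay between 7.70 and 8.23, within the water range of 7.64 to 9.19.

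Ckmt2, the mitochondrial creatine kinase of sarcomeric muscle, gave 5.75, 6.03 and 6.88, and Mb, the oxygen store myoglobin, 7.25, 7.66 and 8.14. Eno3, muscle enolase, gave 10.12, 10.38 and 11.08, and Ampd1, muscle AMP deaminase, 6.50, 6.84 and 8.12. All 4 were highest on antibiotic 6 h array 5. The 2 members tied to oxidative fibres, Ckmt2 and Mb, rose less there, 1.80-fold and 1.39-fold above their medians, than Ampd1, 2.43-fold.

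Fast forms rose more on the highest array than most of their slow partners. On antibiotic 6 h array 5 the 14 fast members had a mean deviation of 1.75 and the 5 slow members 0.16. The range over the 30 arrays was 3.06 for Myh4 and 0.67 for Myh7, 2.61 for Tnnc2 and 0.70 for Tnnc1, 1.84 for Tnni2 and 0.37 for Tnni1, and 2.55 for Tnnt3 and 0.29 for Tnnt1. Mybpc1 was the exception among the slow members, with a range of 1.82 beside 1.79 for Mybpc2. Members not counted here as fast or slow also stood high on antibiotic 6 h array 5, with Pygm 2.10, Ckm 1.81, Trdn 1.70 and Ttn 1.51 above their medians. Myh7 and Tnnc1 had medians of 6.40 and 6.76, below the medians of all arrays, and no background level is given. The part of low signal in their narrow ranges was not tested. No test was made of these differences between genes.

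In water tumours Myh7 read 6.34, 6.56, 6.28, 6.35 and 6.36 at 0 h, 6.31, 6.38, 6.42, 6.39 and 6.14 at 6 h, and 6.72, 6.41, 6.56, 6.38 and 6.42 at 18 h. In antibiotic tumours it read 6.53, 6.38, 6.46, 6.22 and 6.51 at 0 h, 6.33, 6.42, 6.81, 6.57 and 6.32 at 6 h, and 6.55, 6.34, 6.48, 6.45 and 6.37 at 18 h. These values overlapped in all 6 groups, and array 5 of the antibiotic 6 h group, at 6.32, was below the median of the gene. Tnnc1 measured 6.57, 6.76, 6.61, 6.57 and 6.69 at 0 h, 6.60, 6.73, 6.78, 6.55 and 6.86 at 6 h, and 7.03, 6.76, 7.00, 6.63 and 6.81 at 18 h in water tumours. Its antibiotic arrays gave 6.80, 6.53, 6.77, 6.66 and 6.82 at 0 h, 6.83, 6.70, 7.22, 6.63 and 6.60 at 6 h, and 6.79, 6.84, 6.97, 6.76 and 6.67 at 18 h. The highest, 7.22, was on antibiotic 6 h array 3, the array with the narrow distribution, and without it the highest was 7.03 on water 18 h array 1. The Myh7 peak of 6.81 was on the same array, and without it the highest was 6.72. That array was also the highest for the slow light chains Myl2 and Myl3 and for the heart genes Myh6 and Tnnt2, and its part in these peaks was not tested.

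The water values of Tnni2 were 8.79, 8.82, 9.54, 8.95 and 9.53 at 0 h, 8.59, 8.78, 9.04, 8.85 and 8.85 at 6 h, and 9.12, 8.89, 9.49, 8.87 and 9.02 at 18 h. The antibiotic values of Tnni2 were 9.48, 8.80, 8.81, 9.09 and 8.73 at 0 h, 9.08, 8.59, 8.99, 8.73 and 10.43 at 6 h, and 8.67, 9.21, 9.10, 9.15 and 8.73 at 18 h. Its group ranges overlapped in every pair, and 10.43 on antibiotic 6 h array 5 stood clear of the next value, 9.54. In water tumours Tnnt1 measured 9.12, 9.10, 9.20, 9.14 and 9.20 at 0 h, 9.18, 9.17, 9.10, 9.25 and 9.19 at 6 h, and 9.26, 9.23, 9.29, 9.16 and 9.16 at 18 h. In antibiotic tumours it measured 9.25, 9.16, 9.11, 9.14 and 9.20 at 0 h, 9.19, 9.19, 9.30, 9.39 and 9.21 at 6 h, and 9.29, 9.17, 9.32, 9.19 and 9.18 at 18 h. All 30 values of Tnnt1 lay within 0.29 log2 units. Mybpc2 measured 8.46, 8.37, 9.32, 8.51 and 9.21 at 0 h, 8.16, 8.35, 8.39, 8.38 and 8.52 at 6 h, and 8.62, 8.53, 8.88, 8.57 and 8.67 at 18 h in water tumours. Its antibiotic arrays gave 8.84, 8.48, 8.37, 8.81 and 8.43 at 0 h, 8.61, 8.06, 8.04, 8.19 and 9.82 at 6 h, and 8.07, 8.70, 8.46, 8.79 and 8.38 at 18 h. The fast form of myosin-binding protein C again ranked antibiotic 6 h array 5 first and water 0 h arrays 3 and 5 next. The water values of Mybpc1 were 7.35, 7.08, 7.86, 7.55 and 8.01 at 0 h, 7.00, 7.26, 7.66, 7.24 and 7.25 at 6 h, and 7.68, 7.22, 7.46, 7.41 and 7.73 at 18 h. The antibiotic values of Mybpc1 were 8.01, 7.23, 7.10, 7.46 and 7.14 at 0 h, 7.47, 6.88, 7.37, 7.00 and 8.36 at 6 h, and 6.54, 7.84, 7.56, 7.50 and 7.15 at 18 h. The slow form put the same array first, at 8.36, with antibiotic 0 h array 1 and water 0 h array 5, both at 8.01, behind it.

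**Figure D2:**
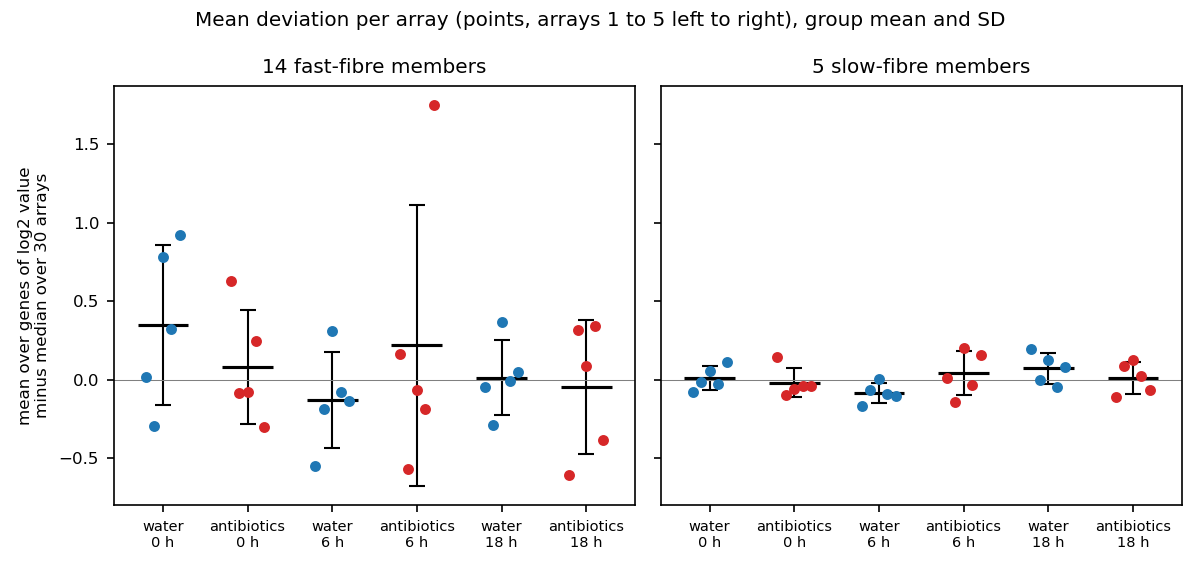
Mean deviation over the 14 fast-fibre members (left) and the 5 slow-fibre members (right) on each array, with points for arrays 1 to 5 from left to right in each group, a bar for the group mean and whiskers for the SD (n = 5). The fast mean reaches 1.75 on antibiotic 6 h array 5, while the slow means stay between -0.17 and 0.21 on the same axis.

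How closely the members moved together was described by the correlation, over the 30 arrays, of deviations from group means, each member against the mean of the other members. The arrays of all genes share the same RNA samples, so these values are a description. The correlation was above 0.9 for 25 of 38 members, and for 19 when antibiotic 6 h array 5 was left out. It was highest for Tnnt3, 0.99, followed by Tnnc2 and Atp2a1, both 0.98. The correlation was under 0.4 for 5 members: 0.35 for Tcap, 0.10 for Tnni1, -0.01 for Tnnt1, -0.02 for Tnnc1 and -0.28 for Myh7. Xirp2 lay between, at 0.66. Among the 91 pairs of fast members the median correlation was 0.92, or 0.86 without that array. Among the 10 pairs of slow members it was 0.13, or 0.19 without it. The mean of the slow members, which include Mybpc1 with 0.94, had a correlation of 0.67 with that of the fast members. Without antibiotic 6 h array 5 that correlation was 0.70.

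The spread between arrays of 1 group was large for these genes. The median residual SD of the members was 0.44 on the log2 scale, against 0.12 over all genes, and 33 of 38 members lay above the 90th percentile of all genes, 0.19. Myl1, Myh4, Myh1 and Pvalb had residual SDs of 0.70, 0.67, 0.66 and 0.65. The lowest were those of Tnnt1 and Tnni1, 0.06 and 0.07. The median SD of the members within a group was 0.70 for antibiotics at 6 h, 0.45 for water at 0 h, 0.38 for antibiotics at 18 h and 0.34 for antibiotics at 0 h. It was 0.25 for water at 6 h and 0.22 for water at 18 h, where the values were most even. Without array 5 the median SD for antibiotics at 6 h was 0.26, so its place as the most variable group rested on that array.

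The group means are given here beside that spread. The mean deviation of the 38 members was 0.24 ± 0.38 (SD, n = 5) for water at 0 h, -0.11 ± 0.22 at 6 h and 0.05 ± 0.17 at 18 h. For antibiotics it was 0.06 ± 0.29 at 0 h, 0.15 ± 0.64 at 6 h and -0.04 ± 0.33 at 18 h. In order from high to low the groups were water 0 h, antibiotics 6 h, antibiotics 0 h, water 18 h, antibiotics 18 h and water 6 h. Each step between neighbours in that order was smaller than the SD of either group, which sorting makes likely. The first and last means, 0.24 and -0.11, lay further apart than the SD of water at 6 h, 0.22. They lay less far apart than the SD of water at 0 h, 0.38. Without array 5 the antibiotic 6 h mean was -0.12 ± 0.22 (SD, n = 4), and the group moved from the second place to the last. Only this group lost an array in that order, and its mean was close to the -0.11 of water at 6 h. Without array 3 the water 6 h mean was -0.19. The median of the antibiotic 6 h arrays was -0.02, below the group mean of 0.15.

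Antibiotics against water asked whether muscle signal differed with the pretreatment. At 0 h 0 of 38 members passed an adjusted p under 0.05 by limma, where 0.0903% of all genes did. The unadjusted p was under 0.05 for 0 members and 6.61% of all genes, and an ordinary linear model called 0 members. For that model the share of all genes is given only for antibiotics against water at 6 h. Its counts in the other comparisons have no share beside them. Of the 38 changes 4 were positive, with a median of -0.16 against -0.01 over all genes. Leaving out 1 array moved that median between -0.28, without water 0 h array 2, and -0.07, without water 0 h array 5. Acta1 was 0.13 lower with antibiotics, with a 95% interval of the difference from -0.68 to 0.42, and Myh1 0.48 lower, with an interval from -1.28 to 0.32. Intervals of this width hold changes of the fast genes in either direction.

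At 6 h all 38 changes were positive and 0 passed by limma, where 3.77% of all genes did. The unadjusted p was under 0.05 for 3 members, Tnni1, Ldb3 and Cacna1s, and for 19.9% of all genes. An ordinary linear model called 1 member, Tnni1, and 3.68% of all genes. The median change was 0.24, against 0.01 over all genes. Pvalb had the largest change, 0.62 higher with antibiotics, with an interval from -0.16 to 1.41. Ckm was 0.43 higher, with an interval from -0.27 to 1.13, and Acta1 0.26 higher, from -0.29 to 0.81. The smallest adjusted p by limma, 0.0549, was that of Tnni1, 0.16 ± 0.05 (SE) higher.

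That common direction at 6 h rested on 1 array. Without antibiotic 6 h array 5, 18 of 38 changes were positive, the median was -0.01 and the changes lay between -0.26 and 0.20. Again 0 members passed by limma, while 7.12% of all genes did. Myh4 turned from 0.28 to -0.20, Myot from 0.26 to -0.14, Atp2a1 from 0.37 to -0.07 and Tnnc2 from 0.39 to -0.04. Pvalb fell back from 0.62 to 0.08. Of the slow members, Myh7 was 0.20 and Tnni1 0.15 higher without the array, and Mybpc1 turned from 0.14 to -0.10. Leaving out array 3 of that group gave a median of 0.30.

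**Figure D3:**
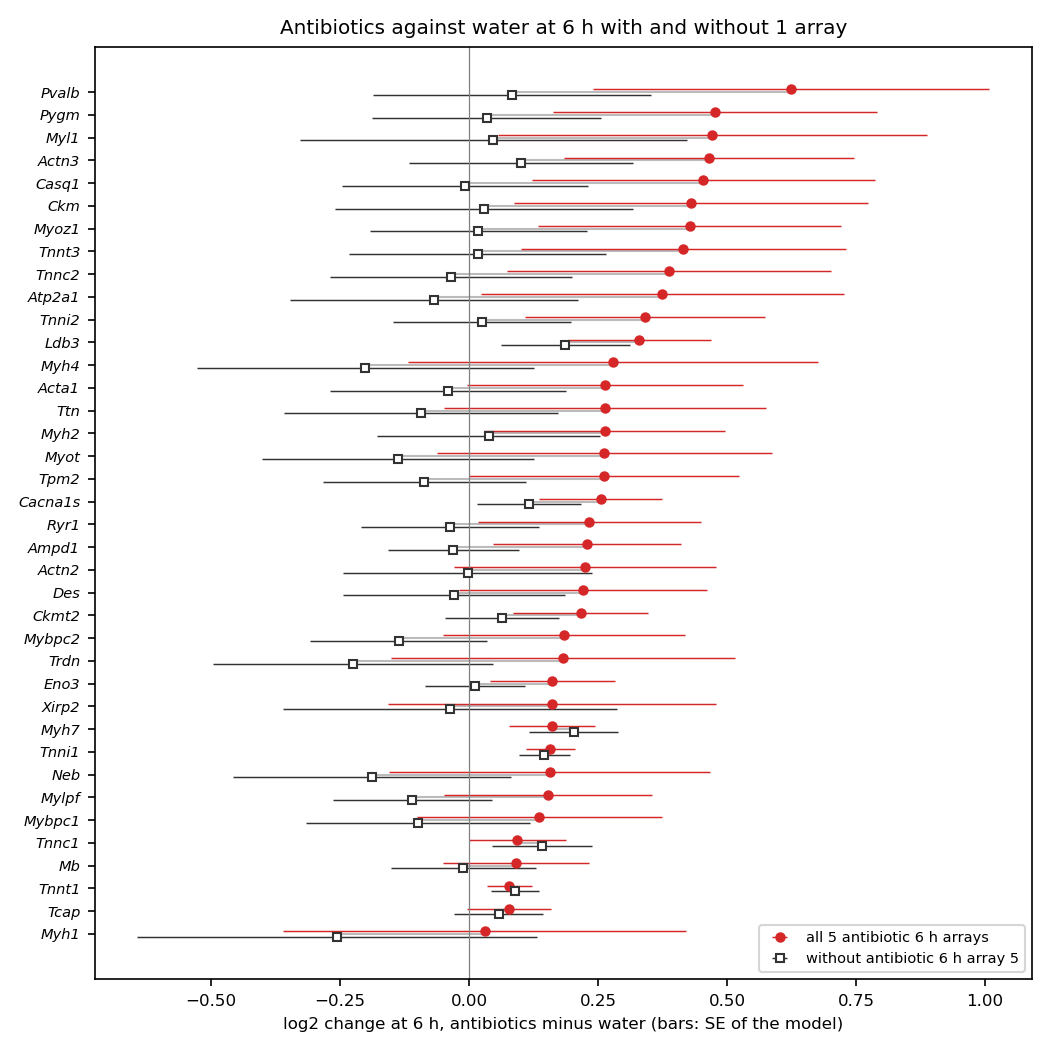
Log2 change at 6 h, antibiotics minus water, for each of the 38 genes with all 5 antibiotic arrays (red circles) and without array 5 (open squares), with bars for the SE of the model. All 38 circles lie right of 0, and 18 of the 38 squares do.

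At 18 h 0 members passed by limma, where 7.85% of all genes did. An unadjusted p under 0.05 was seen for 0 members and 20% of all genes, and an ordinary linear model called 0 members. The median change was -0.07, with 8 of 38 positive, and lay between -0.16, without antibiotic 18 h array 2, and -0.0034, without antibiotic 18 h array 1. Averaged over the 3 times 0 passed by limma, where 6.65% of all genes did. An unadjusted p under 0.05 was seen for 0 members and 18.8% of all genes, and the ordinary model called 0 members. The median was 0.01, with 22 of 38 positive, and without antibiotic 6 h array 5 it was -0.10, with 6 of 38 positive. At 18 h Myh1 was 0.22 higher, with an interval from -0.58 to 1.02, and Acta1 0.22 lower, with an interval from -0.77 to 0.32.

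Time after oxaliplatin was compared within each treatment. From 0 to 6 h in water tumours 1 of 38 members passed by limma, where 1.11% of all genes did. It was Tnni1, the slow inhibitory troponin. The water values of Tnni1 were 7.50, 7.69, 7.60, 7.51 and 7.58 at 0 h, 7.36, 7.39, 7.32, 7.39 and 7.32 at 6 h, and 7.57, 7.66, 7.61, 7.46 and 7.55 at 18 h. The antibiotic values of Tnni1 were 7.41, 7.50, 7.53, 7.61 and 7.42 at 0 h, 7.53, 7.36, 7.59, 7.52 and 7.56 at 6 h, and 7.54, 7.52, 7.58, 7.49 and 7.57 at 18 h. All 5 water 6 h arrays were below all 5 water 0 h arrays. It fell by 0.22 ± 0.05 (SE), with an adjusted p of 0.0135 by limma. Water 0 h array 2, on which Tnni1 was highest, was 1 of the 7 arrays with all fast members below their median. Without it the change was -0.19 and the adjusted p by limma 0.0590. Tnni1 is 1 of the 5 members whose array-to-array pattern matched the others poorly.

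In the same comparison 36 of 38 changes were negative, with a median of -0.34 against -0.01 over all genes. Pvalb was 0.68 lower at 6 h, with an interval from -1.46 to 0.11, and Myh4 0.61 lower, from -1.43 to 0.20. The unadjusted p was under 0.05 for 3 members, Tnni1, Cacna1s and Ldb3, and for 10.6% of all genes. An ordinary linear model called 1, for which no share of all genes is given. Water 0 h arrays 3 and 5, which lay high, belong to this comparison. Leaving out 1 array moved the median between -0.48, without water 0 h array 2, and -0.25, without water 0 h array 5.

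From 0 to 18 h in water tumours 0 members passed by limma, where 14.1% of all genes did. The unadjusted p was under 0.05 for Tnnc1, 0.20 higher, and for Ampd1, 0.46 lower, against 25.6% of all genes, and the ordinary model called 0. The median was -0.16, with 6 of 38 positive, and lay between -0.29, without water 0 h array 2, and -0.07, without water 0 h array 3. In antibiotic tumours 0 members passed by limma from 0 to 6 h, where 0% of all genes did. An unadjusted p under 0.05 was seen for 0 members and 10.1% of all genes, and the ordinary model called 0 members. The median was 0.08 with 30 positive, and -0.20 with 8 positive without array 5 of the 6 h group. From 0 to 18 h in antibiotic tumours 0 passed by limma, where 1.22% of all genes did. An unadjusted p under 0.05 was seen for 0 members and 11.1% of all genes, and the ordinary model called 0 members. The median was -0.10, and 0.01 without antibiotic 18 h array 1.

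The interaction asks whether the change from 0 h differed between antibiotic and water tumours. At 6 h 0 members passed by limma, where 0% of all genes did. All 38 differences were positive, the median was 0.40 and the unadjusted p was under 0.05 for Tnni1, Ldb3 and Eno3 and for 9.85% of all genes, while the ordinary model called 0. Without antibiotic 6 h array 5 the median was 0.17, with 35 positive and 0 passing by limma, where 0% of all genes passed. At 18 h 0 passed by limma, where 0.105% of all genes did. An unadjusted p under 0.05 was seen for 0 members and 9.49% of all genes, and the ordinary model called 0 members. The median was 0.04, and -0.04 without water 0 h array 5. These comparisons share the 0 h arrays and the water 6 h arrays with those above, so their directions are not separate evidence.

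**Figure D4:**
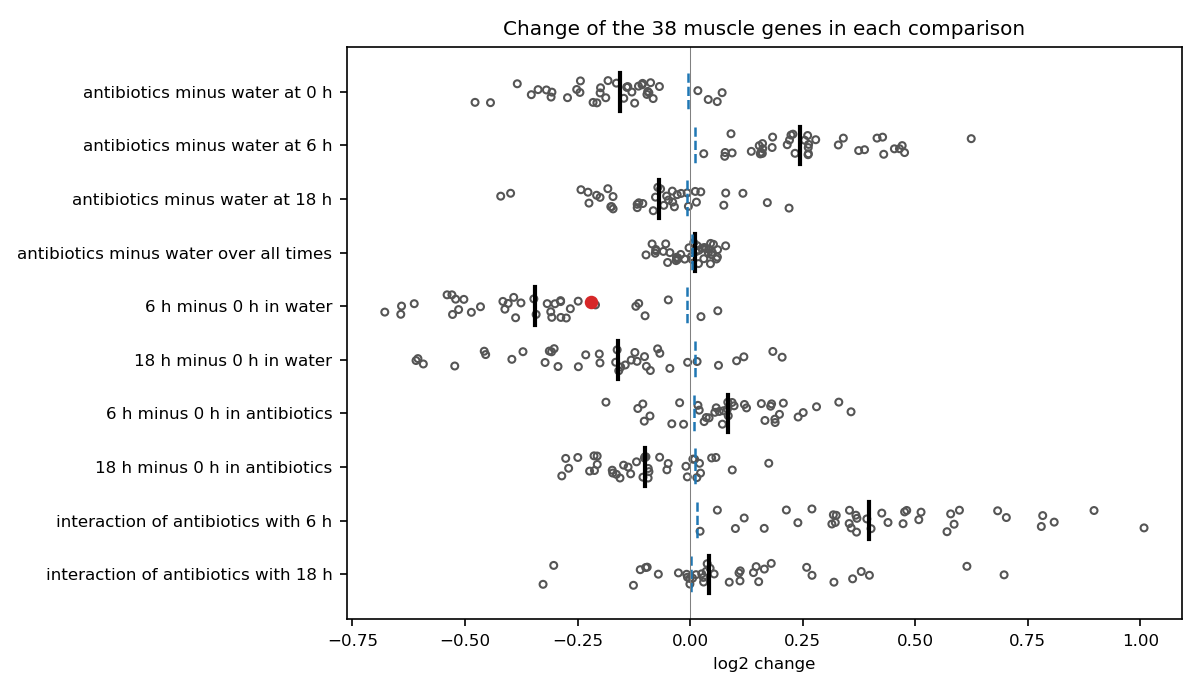
Log2 change of each of the 38 genes (circles) in each of the 10 comparisons, with a black bar for their median and a dashed blue bar for the median of all genes. The filled red point is Tnni1 from 0 to 6 h in water tumours, the 1 change that passed the threshold.

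Other genes of the muscle fibre followed the members to different degrees. The 19 other sarcomere genes had a mean deviation of 0.94 on antibiotic 6 h array 5 and a correlation with the fast members of 0.96 over 30 arrays, or 0.91 over 29. The 11 other metabolic genes had 0.75 and 0.94, and the 14 other coupling genes 0.35 and 0.82. In antibiotics against water at 6 h 0 of 19, 1 of 11 (Cox6a2, higher) and 0 of 14 genes of these lists passed by limma, with 5, 2 and 1 at an unadjusted p under 0.05, all higher, where 3.77% of all genes passed and 19.9% had such a p. An ordinary linear model called 0, 1 and 0, and 3.68% of all genes. All changes of the 3 lists were positive, and without antibiotic 6 h array 5 those of 9 of 19, 7 of 11 and 13 of 14 genes were. Without that array 0, 1 (Cox6a2) and 0 passed by limma and 2, 1 and 0 had an unadjusted p under 0.05. Of all genes 7.12% then passed and 25.5% had such a p. From 0 to 6 h in water 0 genes of any of the 3 lists passed by limma, where 1.11% of all genes did. An unadjusted p under 0.05 was seen for 2, 1 and 1, all lower, and for 10.6% of all genes. The ordinary model called 0 genes of these lists. On antibiotic 6 h array 5 Smpx, a small cytoskeletal protein of muscle, was 3.75-fold above its median. Mylk2, skeletal myosin light chain kinase, was 1.48 log2 units above. The 8 other slow-fibre genes had a mean deviation of 0.29 on that array. Among them Myl2 and Myl3, the slow myosin light chains, stood 0.08 and 0.02 above their medians, while Csrp3 and Ankrd2, a LIM protein and an ankyrin repeat protein of muscle, stood 0.92 and 0.81 above.

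Regulators and genes of immature muscle were mixed on that array. Myf6, the MyoD-family factor of mature fibres, was 1.06 above its median and Mef2c 0.62 above. Myod1 was 0.16 below and Myog 0.04 below, and Pax7, the satellite cell factor, 0.06 below. Of the 9 genes of the neuromuscular junction, Chrna1, the receptor alpha subunit, was 0.61 above and Chrng, the fetal subunit, 0.24 below. The embryonic and perinatal myosins Myh3 and Myh8 were 0.18 below and 0.14 above. The 9 embryonic and regeneration genes had a mean deviation of -0.01, and the 8 heart genes -0.09, with Tnnt2 0.24 below and Myh6 0.19 below.

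The 15 genes outside the list whose deviations followed the mean of the members most closely were, in order, Smpx, Ndrg2, Hspb6, Pdlim3, Cmya5, Hjv, Klhl41, Mlip, Car3, Cox8b, Ppp1r3a, Tmod4, Fhl1, Myom2 and Myom1. Their correlations ran from 0.97 to 0.93 over the 30 arrays. On antibiotic 6 h array 5 the rise was 3.42-fold for Pdlim3, 3.46-fold for Cox8b and 3.40-fold for Car3, muscle carbonic anhydrase. Hspb6, a small heat shock protein, came first when that array was left out, at 0.95, and Smpx second, at 0.94.

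Among the genes of these other muscle lists, Cox6a2 and Cacna2d1 passed the threshold in an antibiotic comparison. Cox6a2, the muscle and heart form of a cytochrome oxidase subunit, measured 7.63, 8.00, 7.99, 7.97 and 7.88 in water and 8.36, 8.46, 9.01, 8.62 and 8.52 in antibiotic tumours at 6 h. The groups did not overlap. It was 0.70 ± 0.11 (SE) higher with antibiotics at 6 h, with an adjusted p of 0.000711 by limma, and 0.59 higher without antibiotic 6 h array 3. Over all times it was 0.43 ± 0.06 (SE) higher, with an adjusted p of 5.9e-05 by limma. Its correlation with the members was 0.15. Cacna2d1, a calcium channel subunit, was 0.21 ± 0.04 (SE) higher over all times, with an adjusted p of 0.00244 by limma and a correlation of -0.14. At 18 h it was 0.28 ± 0.08 (SE) higher, with an adjusted p of 0.0197 by limma, and it did not pass without water 18 h array 1, water 18 h array 2 or antibiotic 18 h array 4, where the lowest change was 0.24. Of the lists of other tissues, Smtn, smoothelin of smooth muscle, was 0.20 ± 0.06 (SE) higher at 6 h, with an adjusted p of 0.0383 by limma, and Cd3d, a T cell receptor chain, 0.20 ± 0.05 (SE) higher, with 0.0275. Cd3d was 0.19 ± 0.05 (SE) lower at 18 h, with an adjusted p of 0.0183 by limma.

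Markers of other tissues near a flank tumour were read on the same arrays. Water 6 h array 1 had the highest mean deviation of the 13 keratinocyte genes, 2.16, while its fast members stood at -0.55. Antibiotic 6 h array 1 followed with 1.99, and its fast members stood at 0.17. On antibiotic 6 h array 5 the keratinocyte mean was 0.03. Their correlation with the fast members was -0.30. Skin and muscle genes thus peaked on different arrays. Adipocyte genes had a mean of 0.23 on antibiotic 6 h array 5, their highest, with 0.17 on water 0 h array 3 next. Retn, resistin, was 0.98 above its median there and Adipoq, adiponectin, 0.54 above. Cidea, Ucp1 and Lep had deviations of -0.16, -0.14 and -0.04, and the rest lay between 0.04 for Pck1 and 0.41 for Cidec. Fibroblast and matrix genes had 0.00, from -0.42 for Postn to 0.70 for Dpt, endothelial genes 0.05, smooth muscle genes 0.02 and tendon genes -0.12. The 5 genes of Schwann cells and nerve had 0.10. Correlations with the fast members were 0.53 for adipocyte, 0.55 for nerve, 0.40 for fibroblast and 0.38 for endothelial genes. They were 0.25 for smooth muscle and -0.17 for tendon genes. Without antibiotic 6 h array 5 they were 0.415, 0.58, 0.39, 0.21, 0.33 and 0.09 in that order. The part of these tissues was not tested.

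Genes of these marker lists passed by limma in other comparisons too. At 18 h several were lower with antibiotics, with changes of -0.43 for Fabp4, a fatty acid carrier, -0.58 for Mmp2, a matrix protease, and -0.35 for the B cell receptor chain Cd79b. The macrophage genes Cd68 and C1qb changed by -0.53 and -0.51, and Cd4 by -0.31. Over all times Mmp2, Cd79b, Cd68, Mpeg1, C1qb, C1qc, Cd3e, Cd4 and Cd5 were lower, with changes from -0.39 for Cd68 to -0.09 for Cd3e. From 0 to 18 h in water tumours Fabp4, Dcn, Postn, Mmp2, Pecam1, Eng, Vwf, Cldn5, Egfl7, Cd79b, Mpeg1, Lyz2, Cd3d and Cd4 were higher, with changes from 0.17 for Cd3d to 0.78 for Mmp2. Of all genes 7.85% passed at 18 h, 6.65% over all times and 14.1% from 0 to 18 h in water. The genes are named as a record, and no share of the marker lists was set against those of all genes. In these 3 comparisons 0 members passed.

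The 9 macrophage genes had a correlation of 0.77 with the fast members, or 0.69 without antibiotic 6 h array 5, where their mean deviation was 0.22. Over the arrays that mean ran from -0.46 to 0.46, a narrower range than the -0.60 to 1.75 of the fast members. The 11 T cell genes had a correlation of 0.58, or 0.31 without that array, and ran from -0.13 to 0.16. On antibiotic 6 h array 5 their mean deviation was 0.12, from Lat, an adaptor of T cell signalling, at -0.04 to Cd2, a T cell adhesion receptor, at 0.42. Averaged over the times, Cd68 was 0.39 lower with antibiotics and C1qb, a complement chain of macrophages, 0.35 lower, with adjusted p-values by limma of 9.1e-05 and 0.000763, while the median change of the members was 0.01, or -0.10 without antibiotic 6 h array 5. The part of macrophage or T cell content in the muscle values was not tested.

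**Figure D5:**
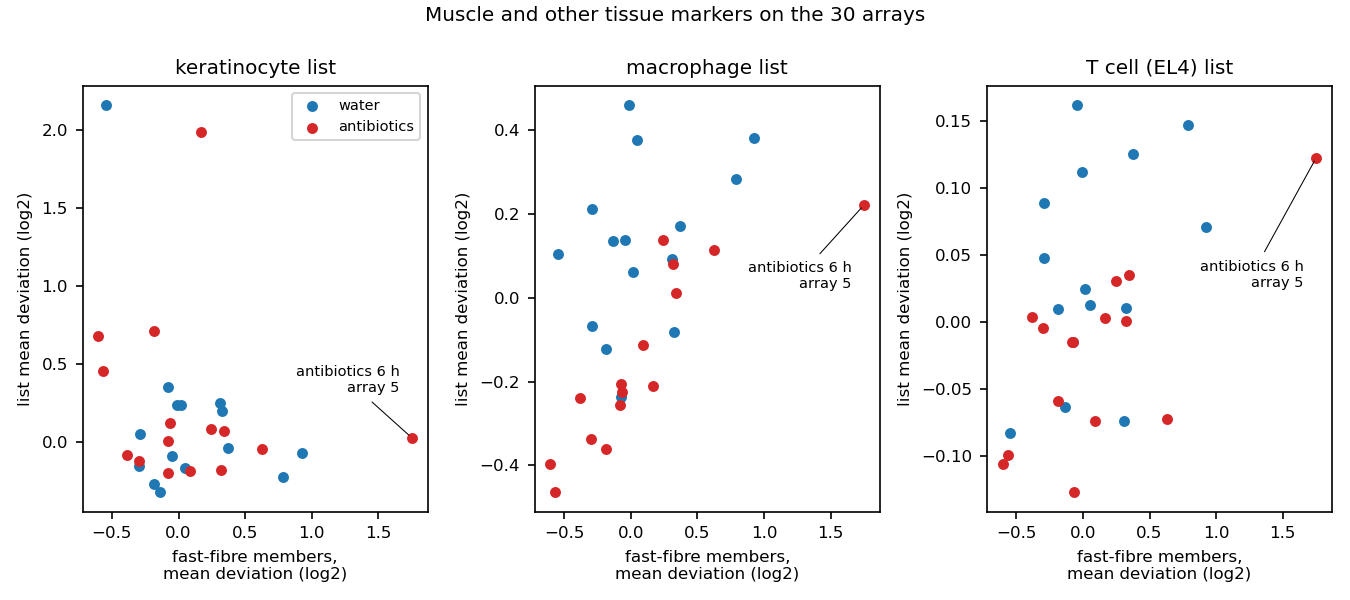
Mean deviation of the keratinocyte, macrophage and T cell lists (vertical axes, log2, each with its own scale) against that of the 14 fast-fibre members (horizontal axis, log2) on the 30 arrays, blue for water and red for antibiotics. The keratinocyte peaks of 2.16 and 1.99 fall on arrays other than antibiotic 6 h array 5.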

How the data were processed

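The values are the authors' deposited log2 intensities, 28853 rows for each of 30 arrays. Per the submitters' processing notes Partek 6.6 was used. The summarisation, the normalisation and the build are not given in the sources used here. At equal ranks, values of different arrays lay as far as 0.276 apart, so their distributions were not identical. Rows were named through the platform's probe table, which can be old. Of 23353 listed rows 21775 had 1 symbol, and the row with the highest mean was kept per symbol. All 19938 genes entered a linear model of 6 group means in limma 3.58.1 (R 4.3.3), with 24 residual degrees of freedom and two-sided tests. P-values were adjusted over all genes within each of 10 comparisons (Benjamini-Hochberg, threshold 0.05). The script was tested on simulated data. The members and all lists were chosen with earlier results of these data known. Every member is named with its lowest, median and highest array. Values per array are given for the 2 members of each class with the widest range and for 5 pairs of fast and slow forms. Outside the list the 15 genes most correlated with the members, and genes of the other muscle and marker lists past the threshold where counts of members are discussed, are named. The number of arrays limits the precision. Replicate numbers follow accession order and pair nothing. Alternatives were other scalings, variance models, array weights, filters, the groups of the comparison only, the mean of a symbol's rows, and each array left out.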

Additional observations from a re-analysis of the deposited data

Results flagged for a closer look

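In groups of 5, an array was looked for whose gap to the nearest other exceeds 0.71 of the range of its group. Such gaps were found in 9 of 114 series of 5 values. Chance gives about 1 in 20 for separate series, and that rate does not apply here. The series share genes and arrays, and most of the single genes were picked for their wide range over these arrays. Antibiotic 6 h array 5 gave 6 of them. The mean deviation there was 1.211 for the Z-disc and scaffold class, with the next array of the group at 0.096, and 1.202 for the energy class, with the next at 0.076. Myot read 9.352 and Myoz1 8.844, with the next at 7.627 and 6.937. Pvalb read 9.611 and Pygm 10.248, with the next at 7.167 and 8.226. Water 18 h array 3 was the highest of its group for Myoz1, at 7.284 with the next at 6.922, and for Pygm, at 8.65 with the next at 8.154. Antibiotic 0 h array 1 was the highest of its group for the mean of the slow members, at 0.145 with the next at -0.037.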

How the results depend on the processing

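Over all alternatives the median change of the members moved by less than 1 pooled SD, 0.372, a bound wider than most of these medians. The level per array was computed again only with the other scalings and the mean of a symbol's rows. It moved by less than that SD. Array weights took the median for antibiotics against water at 6 h from 0.24 to 0.06 and over all times from 0.01 to -0.04, that from 0 to 6 h in antibiotic tumours from 0.08 to -0.03, and the interaction at 6 h from 0.40 to 0.20. The count of members past the threshold for antibiotics against water at 6 h was 0 as reported and 1, Tnni1, with quantile normalisation (adjusted p by limma 0.0447), with the ordinary linear model (0.0424) and with the genes of lowest mean value left out (0.038). With 1 array left out it ranged from 0 to 1, the latter without antibiotic 6 h array 2. From 0 to 6 h in water it ranged from 0 to 1, the former without water 0 h array 2. For antibiotics against water at 6 h, 3.68% of all genes passed by the ordinary model and 7.12% without antibiotic 6 h array 5. The counts under the other settings here have no share of all genes beside them. At 6 h Myh4 was -0.0936 and Myot -0.0133 with array weights, which gave antibiotic 6 h arrays 3 and 5 weights of 0.24 and 0.334. With 1 array left out Myh4 ranged from -0.20 to 0.56, Tnnc2 from -0.035 to 0.62, Myot from -0.14 to 0.43 and Atp2a1 from -0.0678 to 0.63, each lowest without array 5 and highest without array 2. The cause was not tested. The group means, group SDs and list counts without 1 array, and the settings for genes outside the list, were chosen after seeing the data: Cox6a2 at 6 h passed under 17 of 18 and not in a fit of its 2 groups alone (adjusted p by limma 0.0521), and Cacna2d1 at 18 h passed under 14 of 18. With 5 arrays per group the intervals of the fast genes are wide.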
